A study of Mus musculus with 4 samples.

Results

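Monocyte_1 is 1 of 17 cell classes named in the cell table deposited with the study, and its members were the cells that carry this name there. They numbered 4329 of 34447 cells. The cells came from YUMM1.7-OVA RTT tumours, which are melanomas of a mouse line that carries the model antigen ovalbumin and no longer responds to targeted therapy. Each tumour grew in a Rag2-/- mouse, a host without T or B cells of its own, that received activated OT-1 CD8+ T cells specific for ovalbumin. Tumours were taken 72 h after this adoptive transfer, 3 were pooled per condition, CD45+ cells were sorted, and 1 library was made from each pool. The CTRL tumours carried an mCherry vector, the IRF3/7 tumours over-expressed Irf3 and Irf7 in the cancer cells, the COX2i mice received the cyclooxygenase-2 inhibitor celecoxib, and the COX2i + 5-AZA mice received celecoxib with 5-azacitidine, an inhibitor of DNA methyltransferases. All 4 groups shared the RTT line, the Rag2-/- host and the T cell transfer, so none of them shows the class without transferred T cells.

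Monocytes leave the blood for inflamed tissue and tumours, where cytokines direct what they become. Interferon-gamma, which activated T cells and NK cells release, acts in part through the transactivator CIITA and is known to induce the chemokine gene Cxcl9, MHC class II genes and guanylate-binding proteins. Type I interferons act through the ISGF3 complex on interferon-stimulated response elements and are known for antiviral genes such as Isg15 and the Ifit family. Nos2 encodes inducible nitric oxide synthase, which makes nitric oxide from arginine.

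The class was unevenly spread over the libraries. It made up 44 of 8953 cells in CTRL (0.491%, exact Clopper-Pearson 95% interval 0.357 to 0.659), 251 of 6329 in IRF3/7 (3.97%, 3.50 to 4.48), 394 of 9133 in COX2i (4.31%, 3.91 to 4.75) and 3640 of 10032 in COX2i + 5-AZA (36.3%, 35.3 to 37.2). COX2i + 5-AZA thus held 84.1% of all Monocyte_1 cells. The classes were clustered on the same genes that differ between libraries, so these shares are a description of the annotation and not a result about abundance. The pooled counts of unique molecular identifiers (UMIs) behind the values below were 204648 in CTRL, 707866 in IRF3/7, 1669883 in COX2i and 21094205 in COX2i + 5-AZA, with medians of 4269, 2661, 3955 and 5115 UMIs per cell. Levels are given as CPM, in which the UMIs of a gene in the Monocyte_1 cells of a library are scaled to all UMIs of those cells. With 1 library per condition there was no replicate and no test between conditions. The 95% intervals of levels and ratios reflect counting error alone and hold nothing on how tumours vary. In the multiplexed assay 4830 of 29259 droplet barcodes occurred in more than 1 library, 1190 Monocyte_1 cells lay in such droplets, and no full cell barcode was shared.

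Promoter sequences are shown for the members of the marker and MHC class II groups that carry 1 of 3 motifs known from interferon-responsive or MHC class II promoters near their start site, since the results below turn on the levels of these genes. Of 12 genes looked up in the RefSeq promoter windows (GRCm38.p6, 250 bases before to 50 bases after the start), 6 had an entry. Each line gives the window 5′ to 3′ on the strand of the gene, with the motif in capitals. The motifs searched on both strands were the interferon-stimulated response element (GAAA, any 2 bases, GAAA), the gamma-activated site TTCNNNGAA and the Y box CTGATTGG of MHC class II promoters, and they were spelled out in 3.44%, 8.30% and 4.10% of all 32851 windows.
Cxcl9, minus strand, chr5:92328030-92328329, Y box 65 bases before the start: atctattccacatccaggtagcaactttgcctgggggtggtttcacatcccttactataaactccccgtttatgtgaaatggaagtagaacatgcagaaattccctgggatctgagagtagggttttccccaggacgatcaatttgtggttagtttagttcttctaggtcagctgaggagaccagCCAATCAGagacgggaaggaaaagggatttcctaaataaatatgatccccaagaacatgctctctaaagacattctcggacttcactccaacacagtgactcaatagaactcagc
H2-Aa, minus strand, chr17:34287774-34288073, Y box 51 bases before the start: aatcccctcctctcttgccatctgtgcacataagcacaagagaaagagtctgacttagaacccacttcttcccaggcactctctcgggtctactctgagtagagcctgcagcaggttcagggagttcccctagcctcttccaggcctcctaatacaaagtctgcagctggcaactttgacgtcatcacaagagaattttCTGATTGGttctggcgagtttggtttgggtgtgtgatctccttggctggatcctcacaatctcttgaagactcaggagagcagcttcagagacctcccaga
H2-Eb1, plus strand, chr17:34305617-34305916, Y box 62 bases before the start: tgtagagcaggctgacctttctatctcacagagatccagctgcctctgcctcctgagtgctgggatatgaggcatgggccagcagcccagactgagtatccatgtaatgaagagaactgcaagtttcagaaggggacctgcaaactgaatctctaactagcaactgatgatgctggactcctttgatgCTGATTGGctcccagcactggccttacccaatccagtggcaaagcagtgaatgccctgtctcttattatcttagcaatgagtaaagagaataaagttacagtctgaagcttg
Slamf8, minus strand, chr1:172590519-172590818, response element 15 bases before the start: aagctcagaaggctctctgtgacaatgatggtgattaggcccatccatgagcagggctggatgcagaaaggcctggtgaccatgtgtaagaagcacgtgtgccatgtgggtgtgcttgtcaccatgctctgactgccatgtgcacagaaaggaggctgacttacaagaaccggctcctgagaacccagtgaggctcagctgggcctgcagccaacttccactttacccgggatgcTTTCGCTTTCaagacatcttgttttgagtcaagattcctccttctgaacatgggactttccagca
Gbp2b, plus strand, chr3:142594597-142594896, response element 137 bases before the start: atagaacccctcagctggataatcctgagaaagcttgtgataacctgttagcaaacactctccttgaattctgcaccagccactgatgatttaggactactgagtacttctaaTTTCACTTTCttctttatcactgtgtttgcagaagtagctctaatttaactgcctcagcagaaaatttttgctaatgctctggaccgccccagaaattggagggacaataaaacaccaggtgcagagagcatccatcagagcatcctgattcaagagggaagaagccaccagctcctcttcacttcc
The H2-Aa and H2-Eb1 windows and the Cxcl9 window each held a Y box, and the Slamf8 and Gbp2b windows each held a response element. The Pdcd1lg2 window matched none of the 3 motifs, and the gamma-activated letters were in none of the 6 windows. These matches are letters in a window and no measure of binding.

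The class was examined first for the 7 genes that mark it. Nos2 (chr11:78920787-78960254, plus strand, GRCm38) stood at 288 CPM in CTRL (219 to 372), 212 in IRF3/7 (179 to 249), 152 in COX2i (133 to 171) and 282 in COX2i + 5-AZA (275 to 289). Its level was lowest in COX2i, where the interval did not overlap those of the other libraries. Cxcl9 (chr5:92321347-92328079, minus strand), a ligand of CXCR3 that attracts activated T cells, stood at 2937 CPM in CTRL (2707 to 3181), 554 in IRF3/7 (500 to 611), 1989 in COX2i (1922 to 2058) and 1091 in COX2i + 5-AZA (1077 to 1105). The 4 counting intervals did not overlap, with IRF3/7 lowest and CTRL highest. The share of cells with a Cxcl9 UMI had another order, at 36.4% of the 44 CTRL cells, 22.7% in IRF3/7, 56.3% in COX2i and 56.6% in COX2i + 5-AZA. Pdcd1lg2, which encodes the PD-1 ligand PD-L2, was at 19.5 CPM in CTRL (5.33 to 50.04), 15.5 in IRF3/7 (7.76 to 27.8), 41.9 in COX2i (32.7 to 53.0) and 92.6 in COX2i + 5-AZA (88.6 to 96.8). Its interval in COX2i + 5-AZA lay above those of the other 3 libraries, and those of CTRL and IRF3/7 overlapped.

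Ccl24, which encodes the eosinophil attractant eotaxin-2, differed most of the 7 between libraries. It was counted 3997 times there (189 CPM, 184 to 195), once in COX2i (0.599 CPM), 2 times in CTRL (9.77 CPM, 1.18 to 35.3) and 0 times in IRF3/7, where a count of 0 allows up to 4.24 CPM. Slamf8, a receptor of the SLAM family found on macrophages, was at 254, 208, 339 and 356 CPM in CTRL, IRF3/7, COX2i and COX2i + 5-AZA. Gbp2b, a guanylate-binding protein, was at 58.6, 182, 198 and 197 CPM in the same order, and Ly6i, of the Ly6 family of surface proteins, at 88.0, 242, 171 and 176 CPM. CTRL was the lowest library for both. The 7 markers together summed to 3655, 1413, 2891 and 2385 CPM, and in NK cells, which should lack them, to 80.1 in IRF3/7, 243 in COX2i and 202 in COX2i + 5-AZA.

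**Figure D1:**
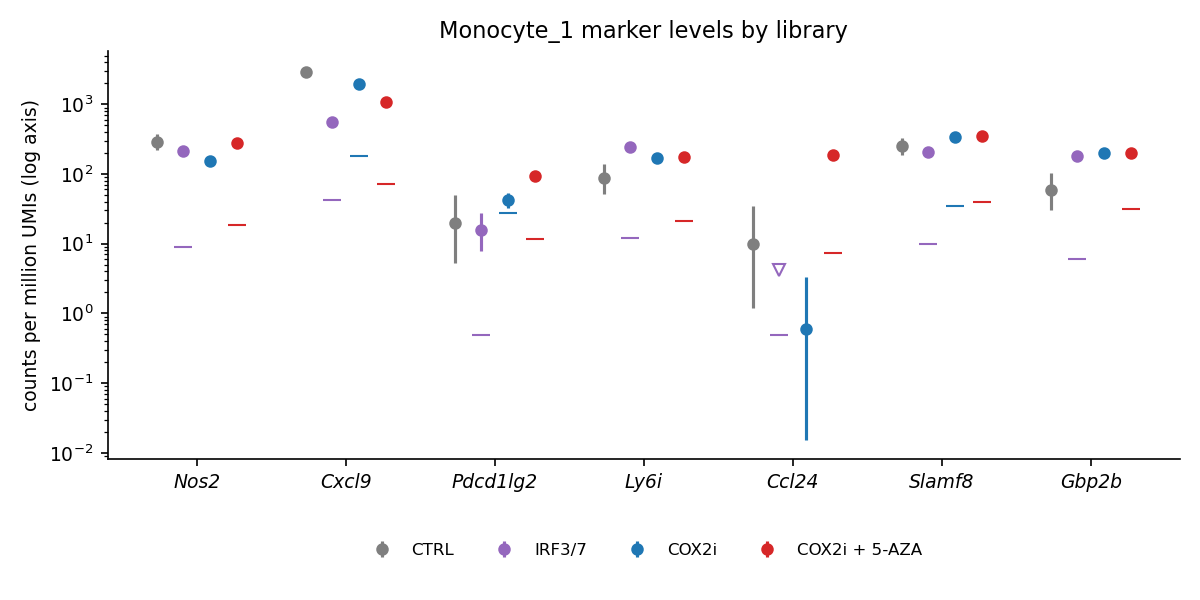
Level of each of the 7 markers in Monocyte_1 cells of the 4 libraries, in CPM on a log axis. Points are the level of 1 library with its exact 95% counting interval, horizontal ticks are NK cells of the same library (not drawn for CTRL) and the open triangle is the upper limit set by a count of 0. Ccl24 stands at 189 CPM in COX2i + 5-AZA and at or under 9.77 CPM in the other libraries, and Cxcl9 is lowest in IRF3/7 at 554 CPM.

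The label was then checked against the other classes of each library that held at least 50 cells. These levels are a description, since the clustering used the same genes. In COX2i + 5-AZA, with 12 such classes, Monocyte_1 ranked first for Ccl24 and Slamf8. It came second for Nos2, after the neutrophils at 662 CPM, and second for Cxcl9, after the cDC1 dendritic cells at 1132 CPM. TAM_H2Ab1 macrophages stood close to it for Cxcl9, at 1073 CPM, and above it for Gbp2b, at 398 CPM. Monocyte_3 stood above it for Ly6i. Of the other monocyte classes, Infl_Mono held 211 CPM of Nos2 and 881 CPM of Cxcl9, and Monocyte_3 held 49.2 and 300.3 CPM. Nos2 and Cxcl9 were thus also found in other myeloid classes in the library that held most of the cells. In COX2i, by contrast, Nos2 was at 152 CPM in Monocyte_1 and at 19.8 CPM in the next class, TAM_Spp1, and Cxcl9 was at 1989 CPM with 485 CPM in the next.

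Per cell, the markers were sparse. Each cell was thinned to 2000 UMIs, which left out 1, 65, 44 and 206 shallower Monocyte_1 cells in CTRL, IRF3/7, COX2i and COX2i + 5-AZA. At least 1 of the 7 markers was then counted in 65.1% of the cells of CTRL, 66.7% of IRF3/7, 75.4% of COX2i and 82.0% of COX2i + 5-AZA. In COX2i + 5-AZA the share was 88.2% among 102 Monocyte_3 cells, 77.4% among TAM_H2Ab1 cells, 69.1% among Infl_Mono cells and 18.2% among NK cells. At least 2 markers were counted in 53.6% of Monocyte_1 cells there, against 46.1%, 43.3%, 38.1% and 3.44% in those classes. The marker set thus did not separate single Monocyte_1 cells from the neighbouring myeloid classes at this depth.

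Markers of other cell types were summed over the class. The T cell markers summed to between 0 and 1.41 CPM over the 4 libraries and the NK cell markers to between 14.7 and 77.7 CPM, against 10888 to 34302 CPM of NK cell markers in NK cells. The dendritic cell list summed to 350.3 to 487 CPM, most of it Itgax, which encodes CD11c and was at 428 CPM in COX2i + 5-AZA. The defining dendritic cell genes Flt3 and Zbtb46 were at 0.142 and 1.75 CPM there. Neutrophil markers summed to 225, 439, 158 and 577 CPM, against 297, 247 and 299 CPM in NK cells of IRF3/7, COX2i and COX2i + 5-AZA. In COX2i + 5-AZA S100a8 (326 CPM), Csf3r (165) and S100a9 (79.5) made up most of that sum. The other neutrophil genes of the list, Cxcr2, Retnlg and G0s2, were at 2.13, 2.18 and 2.04 CPM. Macrophage markers summed to 14894, 13302, 8810 and 10783 CPM, above the classical monocyte markers at 6035, 8738, 7180 and 6944 CPM in each library, and to 1295 to 4689 CPM in NK cells. NK cells held 3544, 6792, 3183 and 4156 CPM of the classical monocyte markers.

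Against all 6392 other cells of COX2i + 5-AZA, 11662 genes were compared and called where the levels were at least 2-fold apart with an interval that excluded equality. Here 135 genes were higher in Monocyte_1, which is 1.16% of those compared, and 2435 were lower, which is 20.9%. The higher genes numbered 300 under median-of-ratios scaling and 80 with each cell weighted equally. The median gene was 0.28 lower on the log2 scale. The largest ratio belonged to Inpp5j, an inositol phosphatase gene, at 87.6 against 18.0 CPM (log2 ratio 2.28). Nos2 followed at 282 against 59.4 CPM (2.25), then Ly6i (2.10), Ms4a8a at 147 against 36.5 CPM (2.01) and Pdcd1lg2 (1.96). Flt1, a VEGF receptor gene, stood at 50.8 against 13.4 CPM (1.92) and Cd1d1, which presents lipids to NKT cells, at 50.3 against 14.1 CPM (1.83). Ass1, which remakes arginine from citrulline and so feeds nitric oxide synthesis, stood at 530 against 167 CPM (1.67). Among the lists, 12 of 17 interferon-gamma-skewed genes (median 1.12) and 6 of 10 MHC class II genes (median 1.12) were higher. So were 5 of 9 guanylate-binding proteins. The 12 include the class markers Nos2, Cxcl9, Slamf8 and Gbp2b, which were high here by choice. The lists also overlap, as Gbp2, Gbp2b, Gbp4, Gbp5, Ciita and H2-Ab1 count more than once, so they are not separate lines of evidence. Of the cell cycle genes 14 of 15 were lower (median -2.98), and of the macrophage markers 8 of 14 were lower. Inpp5j was counted in Monocyte_1 cells of every library, at 63.5, 120, 56.3 and 87.6 CPM.

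The neighbouring monocyte class Infl_Mono differed from Monocyte_1 in COX2i + 5-AZA in its interferon genes. Of 9497 genes compared, 364 were higher in Monocyte_1, which is 3.83%, and 227 were lower, which is 2.39%, and under median-of-ratios scaling the split was 255 to 284. Of the 10 MHC class II genes 7 were higher, with a median of 1.28 against 0.13 over all genes. Dendritic cell markers ran the same way, with Ccr7, Clec9a and Itgax higher of 6 compared (median 1.11), and their part in this difference was not tested. The alpha chain gene H2-Aa stood at 5763 against 1734 CPM (1.73), the beta chain gene H2-Eb1 at 5817 against 1489 (1.97), the invariant chain gene Cd74 at 15615 against 6178 (1.34) and the transactivator gene Ciita at 255 against 109 (1.22). Type I interferon-skewed genes ran the other way, with 14 of 16 lower and a median of -2.17. Isg15, a ubiquitin-like antiviral modifier, was at 902 against 2642 CPM (-1.55), and Cmpk2, a nucleotide kinase of the same response, at 35.0 against 389 (-3.47). The interferon-gamma-skewed list, which holds several class markers, had 3 of 17 genes higher and 1 lower, with a median of -0.07.

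Single markers did not all separate these monocyte classes. Cxcl9 (log2 ratio 0.31), Nos2 (0.42) and Ly6i (0.12) were not called between them in COX2i + 5-AZA, while Pdcd1lg2 (1.57) and Gbp2b (1.17) were higher in Monocyte_1. Mmp12, the macrophage elastase gene, was at 804.5 against 167 CPM (2.27) and Itgax at 428 against 135 (1.66). Genes of classical blood monocytes were lower in Monocyte_1, with 5 of 8 classical monocyte markers called, among them Chil3 at 1031 against 4886 CPM and Plac8 at 2859 against 6572 CPM. Patrolling monocyte markers ran the same way, with 4 of 6 lower (median -1.13) and 3 of 6 lower in COX2i (median -0.97). In IRF3/7, 1 of 5 was lower (median -0.54). The alarmin and acute phase list had 5 of 7 genes lower (median -2.38), led by Lcn2 (-4.14), which encodes lipocalin 2, and S100a9 (-3.75). The neutrophil markers moved the same way, with 5 of 6 lower (median -2.53), and their part in the alarmin difference was not tested.

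The same contrast was read in the other libraries. In COX2i, where 7027 genes were compared, 203 (2.89%) were higher and 236 (3.36%) lower in Monocyte_1 than in Infl_Mono. All 7 MHC class II genes compared were higher (median 2.37), H2-Aa stood at 6712 against 939.9 CPM (2.84), and 15 of 16 type I genes were lower (median -2.24). Of 3 dendritic cell markers compared, Clec9a and Itgax were higher in COX2i (median 1.87), and Itgax and Batf3 in IRF3/7 (median 1.00). Macrophage markers did not keep 1 direction, with 7 of 13 lower in Monocyte_1 of COX2i (median -1.14), 1 of 14 lower in COX2i + 5-AZA and 2 of 13 higher in IRF3/7. Of 8 CC chemokines 5 were lower in COX2i (median -1.08). The part of the macrophage markers in the differences of COX2i was not tested. Nos2 was at 152 against 13.1 CPM there (3.53) and Cxcl9 at 1989 against 485 CPM (2.04), so both markers separated the classes in COX2i. In IRF3/7, with 6754 genes compared, 124 (1.84%) were higher and 174 (2.58%) lower. There 6 of 7 MHC class II genes were higher (median 1.703) and 11 of 16 type I genes lower (median -1.69), with Cxcl9 1.13 higher and Nos2 at 0.74, not called. MHC class II high and type I low was the order of these classes in all 3 libraries with enough cells. The classes come from a joint clustering of the libraries on the same genes, so this shared order is a description and no replication. The ratio of Nos2 and Cxcl9 varied with the library.

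**Figure D2:**
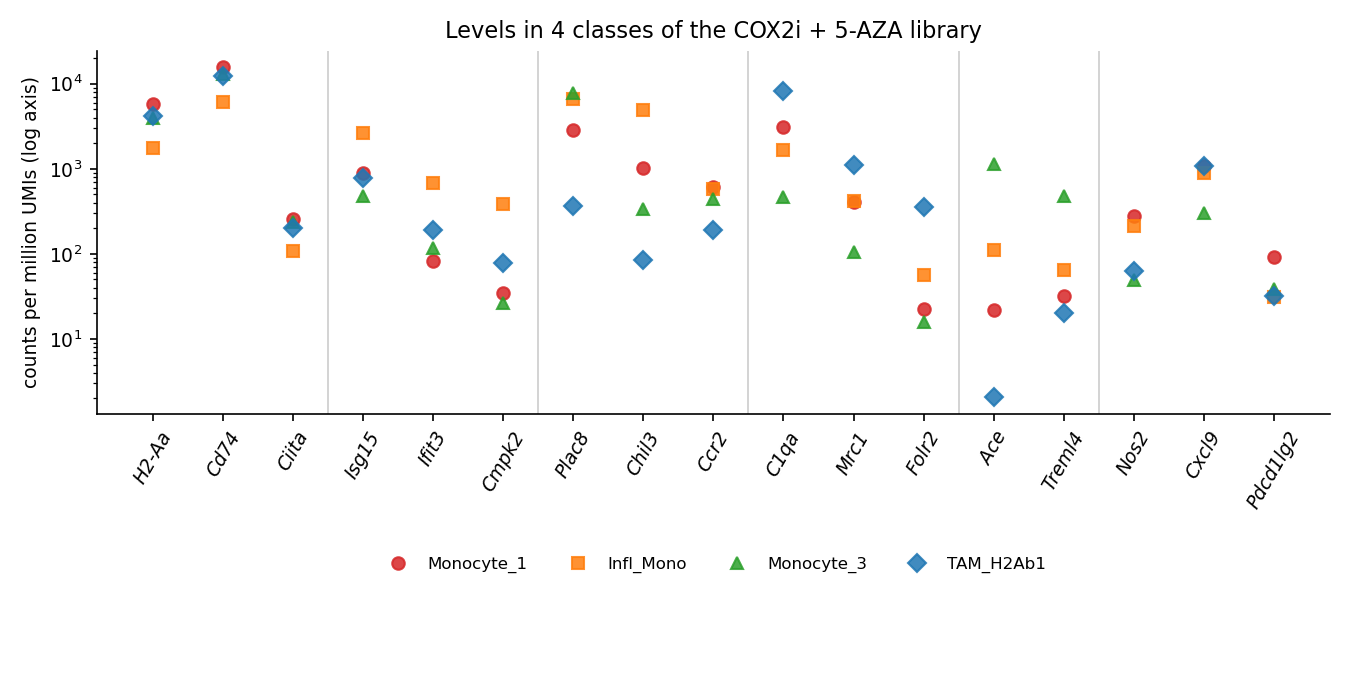
Levels of 17 genes in Monocyte_1, Infl_Mono, Monocyte_3 and TAM_H2Ab1 cells of COX2i + 5-AZA, in CPM on a log axis; each point is 1 class of 1 library, without error bars. Monocyte_1 has more H2-Aa than Infl_Mono (5763 against 1734 CPM) and less Isg15 (902 against 2642), and its Cxcl9 level of 1091 CPM lies beside the 1073 CPM of TAM_H2Ab1.

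The difference from Infl_Mono could be seen in single cells, as a description of classes that were clustered on the same genes. At 2000 UMIs per cell, the MHC class II chains H2-Aa, H2-Ab1 and H2-Eb1 had a median of 36, 37, 33.5 and 28 UMIs in Monocyte_1 cells of CTRL, IRF3/7, COX2i and COX2i + 5-AZA, against 0, 1, 1 and 2 in Infl_Mono cells. The 16 type I genes had medians of 3, 15.5, 3 and 3 UMIs in Monocyte_1 and 12, 36, 14 and 11 in Infl_Mono. The IRF3/7 library was the highest for type I genes in both classes, and Monocyte_1 was below Infl_Mono in each library.

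**Figure D3:**
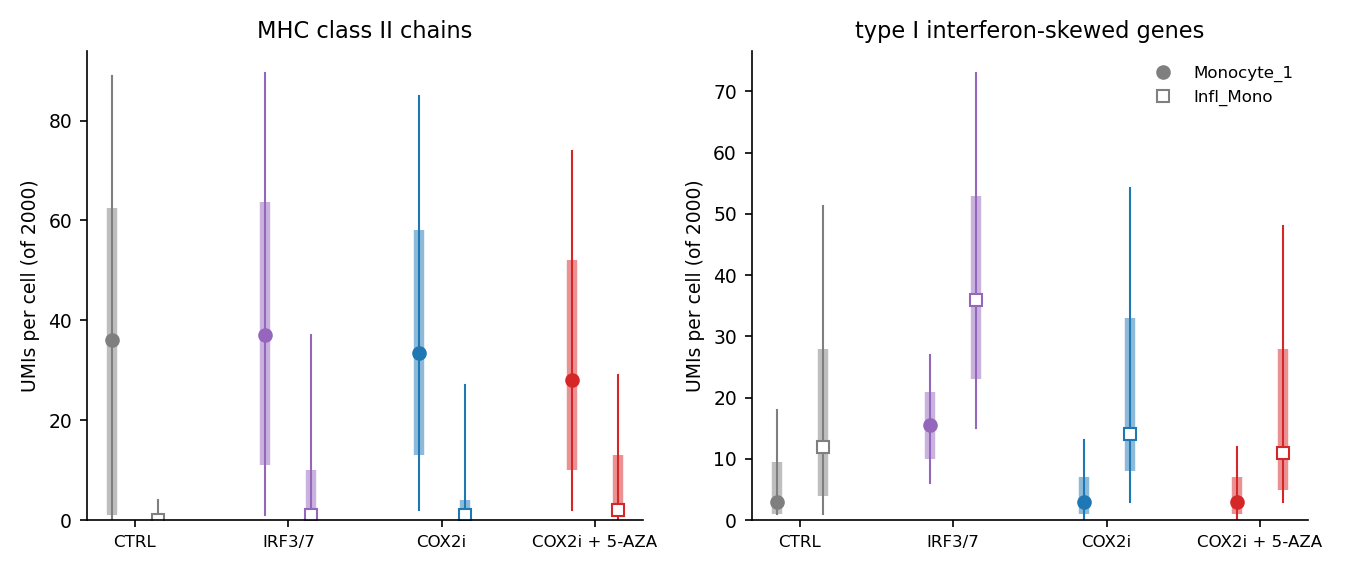
UMIs per cell, of 2000, for the MHC class II chains and for the type I interferon-skewed genes, in Monocyte_1 (filled circles) and Infl_Mono (open squares) of each library. Points are medians over cells, thick bars the 25th to 75th and thin bars the 10th to 90th percentiles; Monocyte_1 medians are 28 to 37 UMIs for the chains, where those of Infl_Mono are 0 to 2.

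Monocyte_3 cells, of which 280 were in COX2i + 5-AZA at a median of 1769 UMIs, differed more widely from Monocyte_1. Of 6772 genes compared, 556 (8.21%) were higher in Monocyte_1 and 280 (4.13%) were lower. With cells of at least 2000 UMIs, which kept 102 Monocyte_3 cells, 180 were lower. All 5 patrolling monocyte markers compared were lower in Monocyte_1, with a median of -3.92, among them Ace, which encodes angiotensin-converting enzyme, at 21.6 against 1152 CPM (-5.74). Adgre4, a surface receptor gene of the same monocytes, had a ratio of -5.78. Ly6i was lower too (-2.77), so this marker was higher in Monocyte_3 than in the class it was given for. Nos2 (2.52), Cxcl9 (1.86), the complement gene C1qa (2.73) and the collagenase gene Mmp13, at 459 against 40.4 CPM (3.51), were higher in Monocyte_1, as were 10 of 13 macrophage markers and 7 of 10 CC chemokines.

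TAM_H2Ab1 macrophages were compared next. Of 9687 genes compared in COX2i + 5-AZA, 369 (3.81%) were higher in Monocyte_1 and 490 (5.06%) were lower. Cxcl9 had a log2 ratio of 0.02, 1 of 10 MHC class II genes was called (median 0.37), and of 17 interferon-gamma-skewed genes Ido1 and Nos2 were higher and Gbp2b lower (median 0.20). Of 16 type I genes 5 were lower (median -0.69). Of the macrophage markers 12 of 14 were lower in Monocyte_1 (median -1.53), for example C1qa at 3115 against 8237 CPM (-1.40). Ccr2, the chemokine receptor that brings monocytes into tissue, was at 610.0 against 192 CPM (1.67), and 5 of 8 classical monocyte markers were higher. Nos2 stood at 282 against 62.2 CPM (2.18) and Il1b, the gene of the inflammatory cytokine IL-1 beta, at 3082 against 716 CPM (2.11). In IRF3/7, with 7385 genes compared, 399 (5.40%) were higher and 569 (7.70%) lower in Monocyte_1 than in TAM_H2Ab1. The macrophage markers were lower there in Monocyte_1 for 10 of 14 genes and 9 of 12 glycolysis and hypoxia genes were higher (median 1.71), where 5 of 13 were higher in COX2i + 5-AZA. Of the cell cycle genes 11 of 12 were lower in Monocyte_1 of IRF3/7 (median -3.37) and 2 of 14 in COX2i + 5-AZA (median -0.58). Interferon-gamma-skewed genes were higher in Monocyte_1 of IRF3/7 for 5 of 16 and lower for 1 (median 0.62), and MHC class II genes were higher for 4 of 7 (median 1.03). Type I genes were lower there for 4 of 16 (median -0.62).

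Comparisons of conditions within Monocyte_1 needed at least 50 cells of the class in both libraries. CTRL, with 44, was left out, so that the comparisons of IRF3/7, COX2i and COX2i + 5-AZA with the mCherry vector control could not be made. COX2i and IRF3/7, both with enough cells, were not compared with each other here. The comparisons of COX2i + 5-AZA with COX2i and with IRF3/7 share the COX2i + 5-AZA cells. Each sets 1 library against another, and the condition and the library cannot be told apart.

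Adding 5-AZA to COX2i was examined first. Of 8556 genes compared, 171 were higher in COX2i + 5-AZA, which is 2.00%, and 111 were lower, which is 1.30%, with a median of -0.05. With an expected count of at least 3 the numbers were 200 higher and 326 lower, so the excess of higher genes depended on that filter. Of the higher genes 101, and of the lower genes 32, were also at least 2-fold above the NK cells of the library in which they were higher, taken here as the background level. Interferon genes differed little, with no gene called among 15 type I genes (median -0.21), 16 interferon-gamma-skewed genes (0.15), 9 guanylate-binding proteins (0.10) and 19 MHC class I genes (0.15). Of 10 MHC class II genes H2-Ob alone was called, as lower. Nos2 (log2 ratio 0.90, 0.72 to 1.08) and Cxcl9 (-0.87, -0.92 to -0.81) stayed under 2-fold, and so did Ly6i (0.04), Slamf8 (0.07) and Gbp2b (-0.01).

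The highest ratios against COX2i belonged to Ccl24, S100a9, Mmp13, Mmp12 and S100a8. Ccl24 was at 189 against 0.599 CPM, from 3997 and 1 UMIs (log2 ratio 8.31, 5.83 to 13.61). Its level in NK cells of COX2i + 5-AZA was 7.42 CPM. Mmp13 was at 132, 63.6, 21.0 and 459 CPM in CTRL, IRF3/7, COX2i and COX2i + 5-AZA, and 4.45 higher on the log2 scale in the last than in COX2i. Mmp12 was at 366, 160, 62.9 and 804.5 CPM in the same order (3.68), with NK cells of the same libraries at 1.49 (IRF3/7), 11.8 (COX2i) and 146 CPM (COX2i + 5-AZA). COX2i was the lowest and COX2i + 5-AZA the highest library for both metalloproteinase genes, and CTRL lay between. Of the 8 metalloproteinase and inhibitor genes compared, 3 were higher and the inhibitor gene Timp1 was lower (-1.85).

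The alarmin S100a8 was at 44.0, 39.6, 28.1 and 326 CPM in the 4 libraries (3.53 against COX2i), with NK cells of COX2i + 5-AZA at 160 CPM and those of COX2i at 39.2. Its partner S100a9 was at 34.2, 9.89, 1.80 and 79.5 CPM (5.47, from 3 UMIs in COX2i), below the 86.5 CPM of NK cells in COX2i + 5-AZA. The 196 neutrophils of that library held 40547 CPM of S100a8, and their part in the Monocyte_1 value was not tested. Of 7 alarmin and acute phase genes 4 were higher (median 2.22), with the serum amyloid gene Saa3 at 218 against 46.7 CPM (2.22) and 23.7 CPM in NK cells. Of 4 neutrophil-attracting chemokines 3 were higher (median 1.83), including Cxcl2 at 356 against 150 CPM (1.25) and Cxcl3, which is at least 2.56 higher on the log2 scale since it was counted 0 times in COX2i. CTRL held the most Cxcl2, at 1031 CPM. Cytokine genes were called for Il1a at 48.8 against 10.2 CPM (2.26) and Tnf at 71.8 against 33.5 CPM (1.10), and Pdcd1lg2 was the called gene among 11 checkpoint ligands and co-stimulators (1.14).

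The lowest ratios against COX2i belonged to Mgp (-3.46), the matrix proteoglycan gene Bgn (-2.35), the receptor gene Fcrls, at 48.6 against 210 CPM (-2.11), the integrin gene Itga6, at 19.0 against 81.4 CPM (-2.10), and the histone gene Hist1h1b, at 12.8 against 50.9 CPM (-1.997). NK cells held 157 CPM of Fcrls in COX2i and 175 in COX2i + 5-AZA. Fn1, the fibronectin gene, was at 4544 CPM in CTRL, 77.7 in IRF3/7, 3386 in COX2i and 879 in COX2i + 5-AZA (-1.95 against COX2i), and Spp1, the osteopontin gene, at 3636, 607, 1513 and 671 CPM (-1.17). NK cells held 1105 CPM of Fn1 in COX2i and 420 in COX2i + 5-AZA, and 1058 and 1080.0 CPM of Spp1. Mgp, a matrix protein gene of stromal cells, was at 63.5 against 5.78 CPM, with 51.0 and 7.91 CPM in NK cells. In COX2i it lay between 25.4 and 65.6 CPM in all 8 classes with at least 50 cells. The 4 stromal markers compared were all lower (median -1.59), and their part in the matrix gene differences was not tested. Of 13 cell cycle genes 4 were lower (median -0.75), including the topoisomerase gene Top2a (-1.34).

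The cyclooxygenase pathway, the target of celecoxib, is measured here as RNA and not as enzyme activity. Ptgs2, which encodes COX2, was at 924, 542, 496 and 694 CPM in the 4 libraries and was not called (0.48). Of 9 prostaglandin pathway genes Ptgs1, at 18.3 against 8.98 CPM (1.02), and Pla2g7 were higher in COX2i + 5-AZA. None of the 5 DNA methylation genes compared was called (median -0.19).

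Infl_Mono cells were compared in the same way between COX2i + 5-AZA and COX2i to see which differences were shared with this monocyte class. Of 6663 genes compared, 163 (2.45%) were higher and 180 (2.70%) were lower in COX2i + 5-AZA. Ccl24 was counted 537 and 0 times, at least 4.79 higher on the log2 scale. Mmp12 (3.86), Mmp13 (2.15), S100a8 (4.40) and Saa3 (3.96) were higher as in Monocyte_1, and Fn1 (-2.12) and Spp1 (-2.43) were lower. Nos2 was at 211 against 13.1 CPM in Infl_Mono (4.01, from 8 UMIs in COX2i), where Monocyte_1 had 0.90. Of 16 interferon-gamma-skewed genes 7 were higher in Infl_Mono (median 0.83) and none in Monocyte_1, and of 14 macrophage markers 8 were lower in Infl_Mono (median -1.03) while 2 were higher and none lower in Monocyte_1. The differences between the classes were not tested. Ccl24 was also counted in macrophage classes of COX2i + 5-AZA, at 89.0 CPM in TAM_Spp1, 84.5 in TAM_cycling and 80.4 in TAM_H2Ab1, and at 8.64 CPM in TAM_Spp1 of COX2i. In Monocyte_3 of COX2i + 5-AZA it was at 17.6 CPM, from 10 UMIs. Of the 12 classes of that library with at least 50 cells, Monocyte_1 held the highest Ccl24 level and Infl_Mono, at 136 CPM, the next.

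COX2i + 5-AZA and IRF3/7 were then compared within the class. Of 7218 genes, 397 were higher in COX2i + 5-AZA, which is 5.50%, and 156 were lower, which is 2.16%, with a median of 0.06, and with an expected count of at least 3 the numbers were 469 and 257. Of these calls 100 higher and 61 lower genes were at least 2-fold above NK cells of the library in which they were higher. Of the type I genes 14 of 15 were lower in COX2i + 5-AZA, with a median of -1.45. In IRF3/7, 4 of these 14 genes (Isg15, Slfn4, Oas2 and Oasl2) were at least 2-fold above NK cells, and 3 (Ifit1, Usp18 and Ifi44) were below them. NK cells of IRF3/7 held 587 CPM of Usp18, against 249 in Monocyte_1 and 393 in TAM_H2Ab1 of that library. The NK levels of these genes may include RNA made by NK cells, so they are no measure of free RNA alone. The part of free RNA in the Monocyte_1 levels was not tested. Isg15 was at 860 CPM in CTRL, 2618 in IRF3/7, 867 in COX2i and 902 in COX2i + 5-AZA (-1.54 against IRF3/7). Slfn4, a schlafen gene induced by type I interferon, was at 205, 1825, 216 and 251 CPM (-2.86), and Ifit3 at 186, 329, 108 and 83.3 CPM (-1.98). IRF3/7 was the highest library for all 3 genes, and for Isg15 and Slfn4 the other 3 libraries lay close together. NK cells of IRF3/7 held 1157 CPM of Isg15, 615 of Slfn4 and 278 of Ifit3.

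Irf7, a transcription factor gene of the same response, was at 796, 2296, 508 and 657 CPM (-1.81), with 971 CPM in NK cells of IRF3/7. RNA of the gene over-expressed in the cancer cells and RNA made by the monocytes cannot be told apart in these counts. The MHC class I genes H2-Q6 (-2.02) and H2-Q7 (-1.95) were lower in COX2i + 5-AZA than in IRF3/7, and of the 19 genes of that list 4 were lower and 1 higher. Summed over the list, type I genes took 3401, 8204, 2735 and 2475 CPM of Monocyte_1 RNA in CTRL, IRF3/7, COX2i and COX2i + 5-AZA. The interferon-gamma-skewed list took 17552, 15127, 17792 and 15903 CPM. By these sums the IRF3/7 library was highest in the first list and lowest in the second. Such sums weigh abundant genes most, and Gbp2 and Cxcl9 of the second list were lower in IRF3/7 than in COX2i + 5-AZA. Of 16 genes of that list compared between these libraries, 1 was called, which was Gbp2.

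Interferon-gamma genes were near each other in this comparison. Of 16 compared, Gbp2 was higher in COX2i + 5-AZA, at 2827 against 1264 CPM (1.16), and the list had a median of 0.21. Cxcl9 reached 0.98 (0.83 to 1.13) and was not called, nor were Nos2 (0.41), Cxcl10 (-0.25), Slamf8 (0.78), Ly6i (-0.46) and H2-Aa (-0.20). The 3 MHC class II chains summed to 20489, 20476, 20005 and 17148 CPM in the 4 libraries.

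**Figure D4:**
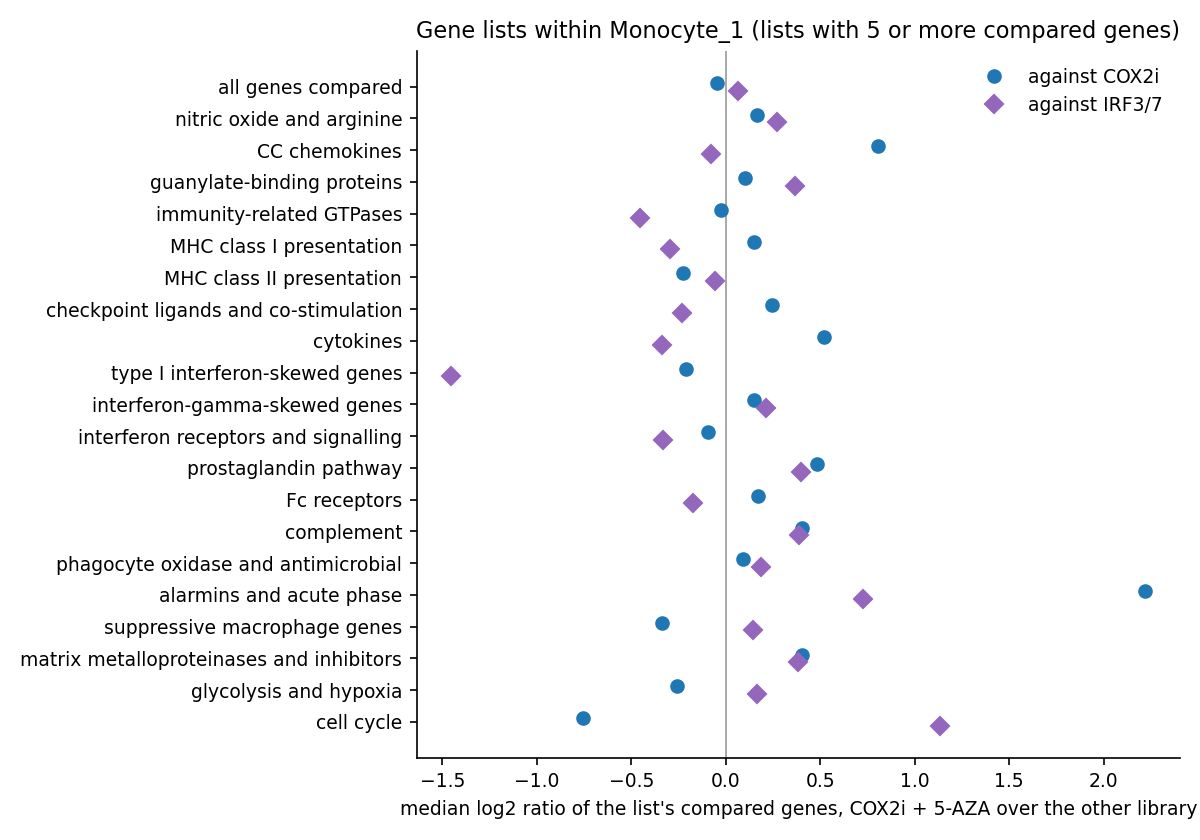
Median log2 ratio of each gene list with at least 5 genes compared, for COX2i + 5-AZA against COX2i and against IRF3/7 within Monocyte_1. Type I interferon-skewed genes have medians of -0.21 and -1.45, alarmin and acute phase genes 2.22 and 0.73, and interferon-gamma-skewed genes 0.15 and 0.21.

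Other genes differed between COX2i + 5-AZA and IRF3/7 as well. The 15 cell cycle genes summed to 341 CPM in COX2i + 5-AZA and 253 CPM in IRF3/7, where Pcna alone held 168 CPM. Of them, 9 had too few counts to be compared singly. Of the 6 compared, Mki67, Mcm2 and Mcm3 were higher in COX2i + 5-AZA and none was lower (median 1.13). Against COX2i the called genes of this list were lower. Fn1, at 879 against 77.7 CPM, had a log2 ratio of 3.50, and its level was lowest in IRF3/7 and highest in CTRL. Mrc1, the mannose receptor gene, was at 407 against 141 CPM (1.53), with 313 CPM in NK cells of COX2i + 5-AZA. Pdcd1lg2 (2.58), Mmp13 (2.85), Mmp12 (2.33), S100a8 (3.04), Il1a (3.11) and Ccl24, at least 5.48, were higher as they were against COX2i, in a comparison that uses the same COX2i + 5-AZA cells. Lpl, the lipoprotein lipase gene, was at 156 against 7.06 CPM (4.46), and the lectin gene Mgl2 had a ratio of 4.49 from 3 UMIs in IRF3/7. Of the lower genes, Gpnmb, a lysosomal glycoprotein of phagocytes, was at 83.1, 168, 7.78 and 16.5 CPM (-3.34), Apoe had a ratio of -1.85 and the haem oxygenase gene Hmox1 one of -1.12. The suppressive list, taken over all its genes, summed to 14268, 4494, 8307 and 4513 CPM, with CTRL highest. Of its 9 genes compared, 2 were higher and 2 lower.

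Cells of the class varied among themselves. At 2000 UMIs, Cxcl9 was counted in 37.2%, 19.4%, 51.1% and 44.2% of cells in CTRL, IRF3/7, COX2i and COX2i + 5-AZA, and without thinning in 36.4%, 22.7%, 56.3% and 56.6%. NK cells, at medians of 2674.5, 3099 and 2606 UMIs before thinning, showed it in 3.91%, 9.68% and 9.62% of cells in IRF3/7, COX2i and COX2i + 5-AZA. Nos2 was counted in 23.3%, 14.0%, 11.4% and 20.2% of Monocyte_1 cells, against 0.978%, 0% and 0.687% of NK cells. The NK cells of COX2i were 31 after thinning, so that a count of 0 among them allows a share of up to 9.68% by the floor of 3 counts and 11.2% by the exact interval. H2-Ab1 was counted in 79.1%, 86.0%, 91.4% and 90.8% of Monocyte_1 cells, and in 12.5%, 38.7% and 33.0% of the NK cells of IRF3/7, COX2i and COX2i + 5-AZA. In these 3 libraries all 3 genes were counted in a larger share of Monocyte_1 cells than of NK cells.

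**Figure D5:**
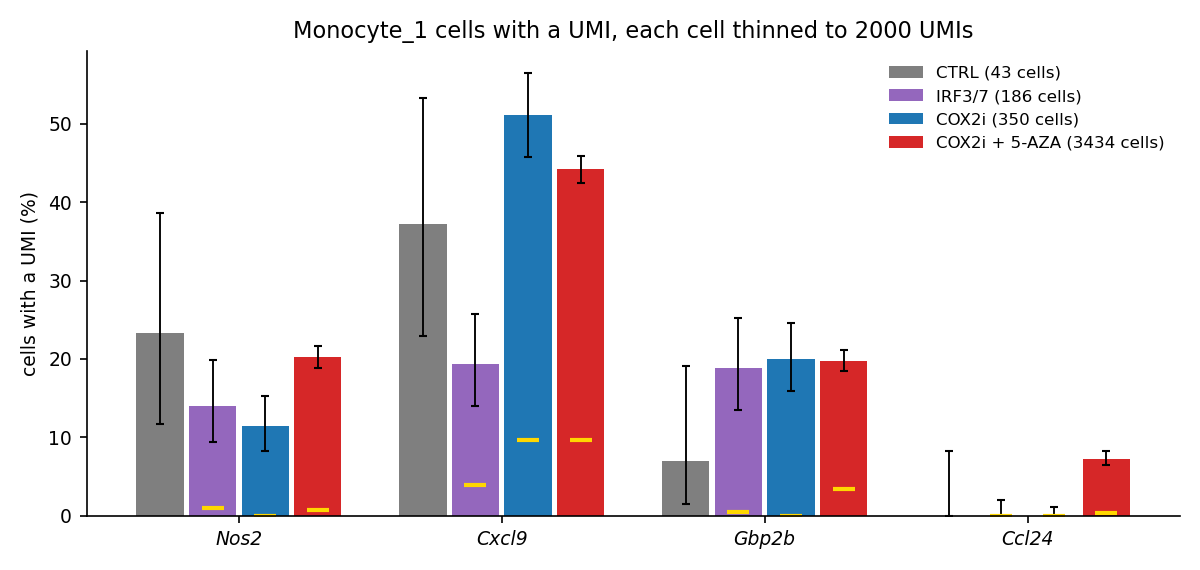
Percent of Monocyte_1 cells with at least 1 UMI of a gene after thinning to 2000 UMIs, by library, with exact binomial 95% intervals as error bars; gold ticks are NK cells of the same library (not drawn for CTRL). Cxcl9 reaches 19.4% to 51.1% of cells, Nos2 11.4% to 23.3% and Gbp2b 6.98% to 20.0%. Ccl24 stands at 7.28% in COX2i + 5-AZA and 0% in the other libraries. The 0% of CTRL is from 43 cells, with an interval up to 8.22%.

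The RNA of Nos2 and Cxcl9 was concentrated in few cells. In COX2i + 5-AZA the 10% of cells with the most Cxcl9 held 60.7% of its UMIs, and the 10% with the most Nos2 held 80.8%. Ranked by variance over mean among 2160 genes with a mean of at least 0.2 UMIs per cell, Ccl24 was the first at 23.2, where the median gene was at 1.09. It was followed by S100a8 (15.3), the T cell attractant Ccl5 (14.0), the adhesion protein gene Thbs1 (13.2), the lipid carrier gene Apoe (11.9) and Cxcl2 (11.6). Ccl24 was counted in 7.28% of cells and reached 70 UMIs of 2000 in one of them. Cxcl9 had rank 10 at 10.3, with Nos2 further down (6.33).

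Nos2 and Cxcl9 were then counted together at 2000 UMIs per cell, as a description without a test. Of 3434 cells of COX2i + 5-AZA, Nos2 was counted in 694 and Cxcl9 in 1517. Both were counted in 357 cells, where independence would give 307, so that 51.4% of cells with Nos2 and 42.3% of the others had Cxcl9. In COX2i the pair met in 25 of 350 cells with 20.5 under independence, in IRF3/7 in 4 of 186 cells with 5.03, and in CTRL in 6 of 43 cells with 3.72. The 2 genes thus met in more cells than independence gives in COX2i + 5-AZA, by counts from 1 library, and in the smaller pools the counts were few.

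Across cells, the natural log of thinned UMIs plus 1 of some genes varied together. The pairs were chosen after their values were seen, and the points share library and depth. The MHC class II pair H2-Eb1 and Cd74 had a Pearson r of 0.81 over 3434 cells of COX2i + 5-AZA, 0.82 over 350 cells of COX2i and 0.86 over 186 cells of IRF3/7. Chil3, a classical monocyte gene, ran against H2-Eb1, with r of -0.38, -0.33 and -0.32 in the same libraries. Plac8 ran against the macrophage gene C1qa at -0.38, -0.39 and -0.21. Fn1 and Spp1 had r of 0.38, 0.54 and 0.09. Thbs1 and Cxcl9 had r of -0.20, -0.26 and -0.11, which in sparse counts is weak.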

How the data were processed

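Single-cell RNA profiles of CD45+ tumour cells were measured with a probe-based assay on fixed cells in 4 libraries, 1 for each group. Per the labels and methods, the authors aligned the reads with Cell Ranger 7.1.0 to mm10, filtered cells and genes, and integrated the libraries with other experiments before clustering. The authors deposited UMI counts for 12584 genes in each cell without normalization, and the 17 class names come from the authors' cell table. UMI sums equalled that table in all 34447 cells, 1201 of which (136 of Monocyte_1) had at most 1000 of the deposited genes.

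Counts were summed over the cells of a class in a library and divided by their total. With 1 library per group no count model was fitted. Ratios carry exact conditional 95% intervals, levels exact Poisson intervals and shares exact Clopper-Pearson intervals, which cover counting error only. A gene was compared where the smaller pool had an expected count of at least 10, and called at 2-fold or more with an interval excluding equality. Where a library had 0 counts, 3 counts served as its floor. Both pools needed at least 50 cells. For detection and scores each cell was thinned to 2000 UMIs. The ratio estimator was tested on simulated data. Doublets were not called here, and no doublet caller was found in the sources used here. Values of multigene families (Gbp, Ly6, H2-Q, Ifit, Slfn) are uncertain, since their probes could bind near-identical copies and were not examined. Of the genes listed, Cxcl11, Cxcl5, Ly6c1, Ly6c2, Mx1, Mx2 and Cx3cr1 were among those not analysed here. Gene positions are of GRCm38.

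A few genes of the lists are not reported here and were left out of list counts, medians and sums. The members, gene lists and alternatives were chosen with earlier results of these data known. Genes named are the class markers, members of 24 lists, the 10 genes highest against all other cells, and the 5 highest and 5 lowest of each other comparison with at least 50 CPM in the higher pool. The most variable genes, the correlated pairs and genes set beside a neighbouring class were added after their values were seen. Alternatives tried were other expected counts, cell depths, scaling, weights and cell exclusions. Python 3.11.15, numpy 2.4.6, scipy 1.17.1, pandas 2.3.3 and matplotlib 3.10.9 were used.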

Additional observations from a re-analysis of the deposited data

Results flagged for a closer look

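Ptgs1, which encodes cyclooxygenase 1, had opposite signs in the monocyte classes when COX2i + 5-AZA was set against COX2i. Its log2 ratio was 1.02 in Monocyte_1 (0.28 to 1.87, at 18.3 against 8.98 CPM) and -1.08 in Infl_Mono (-1.85 to -0.25, at 14.7 against 31.1 CPM). With 1 library per group the difference between the classes was not tested. The counts behind both ratios are small, and the intervals cover counting error only.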

How the results depend on the processing

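Each group was 1 library pooled from 3 tumours, so the spread between tumours is unknown, and small pools limit what could be called. No paired analysis was possible because each group is 1 library. The 3 comparisons with CTRL were not run, as CTRL held 44 Monocyte_1 cells. Allowing an expected count of at least 3 gave 326 lower and 200 higher genes in place of 111 and 171 against COX2i, and 257 and 469 in place of 156 and 397 against IRF3/7, as more genes were then compared. Against Monocyte_3, cells with at least 2000 UMIs gave 180 lower genes in place of 280. Against all other cells, median-of-ratios scaling, which moved the median gene by 0.28, gave 300 higher genes and equal weight per cell gave 80, in place of 135. Against Infl_Mono that scaling moved the median gene by 0.13. Thinned to 3000 UMIs, Cxcl9 was counted in 57.6% (COX2i) and 50.8% (COX2i + 5-AZA) of cells and Nos2 in 23.4% of COX2i + 5-AZA. Of 282 named genes against COX2i, 2, 27, 14, 0 and 31 moved outside their interval with deeper cells, equal weights, median-of-ratios scaling, no cells with T or NK marker UMIs and none of the 10% of cells with most UMIs. Of 255 against IRF3/7 the numbers were 6, 21, 10, 1 and 31. None of these named genes changed the sign of a call under these 5 alternatives.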
